A study of Homo sapiens with 12 samples.

Results

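Serpins are a family of proteins with a common fold, most of which trap a protease by offering it a bait loop and then changing shape irreversibly. Members of the extracellular clades act in plasma and matrix on proteases of inflammation, clotting and plasminogen activation, clade B members mostly act inside cells, and a few, such as the hormone carriers and the collagen chaperone, do not inhibit proteases. In colon epithelium they are known as acute-phase products, as guards against proteases from granules and lysosomes, and as regulators of proteolysis at the cell surface. The genes described here are those whose symbol is SERPIN followed by a clade letter A to I and a number, with pseudogenes left out. The rule found 30 genes among the 18377 single-gene symbols measured, each with 1 probe set, and used no measured value. SERPINA2, SERPINA13P and SERPINB9P1 were left out as pseudogenes, and other symbols of the family were not analysed here.

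The samples were HT29, a long-established line from a human colon cancer, grown in F12 medium with serum. They were treated with 70 nM methotrexate, an antifolate that blocks the supply of reduced folates for thymidylate and purine synthesis, for 8, 24 or 48 h, or were untreated controls, taken here as 0 h. Each of the 4 groups held 3 arrays, which the titles call biological replicates. No untreated array at a later time was used, so drug exposure and time in culture cannot be told apart.

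Values are log2 ratios to the median of the 3 control arrays, so a control array often reads exactly 0 and only differences remain, with the level of each transcript lost. Whether a serpin was well above background in these cells is therefore unknown, and the cell line could not be checked against its markers by level. A gene was called, and is said to have risen or fallen, at an adjusted p under 0.05 in limma's moderated test over all 18377 genes. The error of a log2 fold change is limma's SE from a fit that pools the spread of all 4 groups, with n = 3 arrays in each group. Replicate 3 of the 48 h group stood apart. Over all genes it differed from replicates 1 and 2 by a root mean square of 0.208 and 0.184, against 0.094 to 0.143 for the other replicate pairs. Over the serpins alone these distances were 0.171 and 0.136, against 0.076 to 0.15 for the other pairs. The median SD of a serpin was 0.0684 in the control group, 0.0649 at 8 h, 0.049 at 24 h and 0.0709 at 48 h. Of 14 fibroblast markers measured 1 rose at each time, FN1 (1.0012 at 48 h), and of 14 markers of leukocytes or endothelium likewise 1, CD68 (1.08 at 48 h). Of 14 hepatocyte markers APOH fell by 0.35 at 8 h and rose by 0.39 at 48 h. Of 12 epithelial markers 2 rose at 8 h, 4 at 24 h and 3 at 48 h, and 0 fell. The mean log2 ratio of the epithelial list on an array ran from -0.0009 to 0.0058 in controls, 0.04 to 0.08 at 8 h, 0.16 to 0.21 at 24 h and 0.08 to 0.14 at 48 h. For the fibroblast list it ran from -0.01 to 0.03, 0.06 to 0.10, 0.07 to 0.13 and 0.07 to 0.16 in the same order of groups, and for the leukocyte and endothelial list from -0.01 to -0.0022, 0.0087 to 0.03, 0.05 to 0.08 and 0.06 to 0.16. In these 3 lists the mean of every treated array lay above that of every control array. The fibroblast mean includes FN1 and the leukocyte and endothelial mean CD68, the only called genes of those lists. The hepatocyte list overlapped its controls at all times, with -0.02 to 0.03 in controls, -0.03 to 0.01 at 8 h, -0.04 to 0.06 at 24 h and -0.03 to 0.07 at 48 h. What part these marker changes have in the results below was not tested.

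SERPINB3 and SERPINB4 are neighbouring copies on chromosome 18, and their upstream sequences are shown because both genes rose. These bases lie before the start of the transcript, so their identity does not show how far the probes tell the copies apart. The 250 bases before each start, on the minus strand of GRCh38.p14 in RefSeq, lie at chr18:63661894-63662143 for SERPINB3 and at chr18:63644257-63644506 for SERPINB4. Capitals mark the bases at which the pair differ.
SERPINB3: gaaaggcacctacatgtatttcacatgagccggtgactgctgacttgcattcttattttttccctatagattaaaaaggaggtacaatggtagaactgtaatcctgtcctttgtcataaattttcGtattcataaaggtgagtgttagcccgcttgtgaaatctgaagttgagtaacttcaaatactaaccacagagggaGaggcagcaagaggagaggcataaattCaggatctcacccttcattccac
SERPINB4: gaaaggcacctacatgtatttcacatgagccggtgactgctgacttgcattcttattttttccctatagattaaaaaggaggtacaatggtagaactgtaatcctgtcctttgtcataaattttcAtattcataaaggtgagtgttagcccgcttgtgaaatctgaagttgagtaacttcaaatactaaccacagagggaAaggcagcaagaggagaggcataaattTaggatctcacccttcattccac
Of the 250 bases, 247 (98.8%) were identical with no gap. The differences were G126A, G201A and C228T, with the SERPINB3 base first, the SERPINB4 base last and positions counted from 1 at the first base printed.

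The serpins moved in both directions and at different times. Against control, 4 rose and 4 fell after 8 h, 7 rose and 0 fell after 24 h, and 5 rose and 3 fell after 48 h. The largest changes against control were a 2.81-fold fall of SERPINA3 at 8 h and rises of SERPINB3, 2.11-fold at 8 h and 1.996-fold at 24 h. Next came a 1.76-fold rise of SERPINB9 at 48 h. The 8 members called at 8 h were 26.7% of the 30, against 24.2% of all genes. The 7 called at 24 h were 23.3%, against 16.7% of all genes, and the 8 called at 48 h were 26.7%, against 25.3%. The count of 8 at 48 h was 4 without control replicate 2, and 5 without control replicate 3 or without 48 h replicate 1. By direction, 12.1% of all genes rose and 12% fell at 8 h, 8.69% rose and 8.02% fell at 24 h, and 13% rose and 12.3% fell at 48 h. The members' share was near that of all genes at 8 and 48 h. Array groups did not overlap for 11 members at 8 h (37.9% of all genes), 12 at 24 h (33% of all genes) and 9 at 48 h (35.7% of all genes). A change that was called and at least 1.5-fold was seen for 5 members at 8 h (3.25% of all genes), 2 at 24 h (2.41%) and 1 at 48 h (3.74%). The median log2 fold change of the 30 members was 0.03 at 8 h, 0.02 at 24 h and 0.02 at 48 h, and that of all genes was 0.02, 0.02 and 0.01 at the same times.

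**Figure D1:**
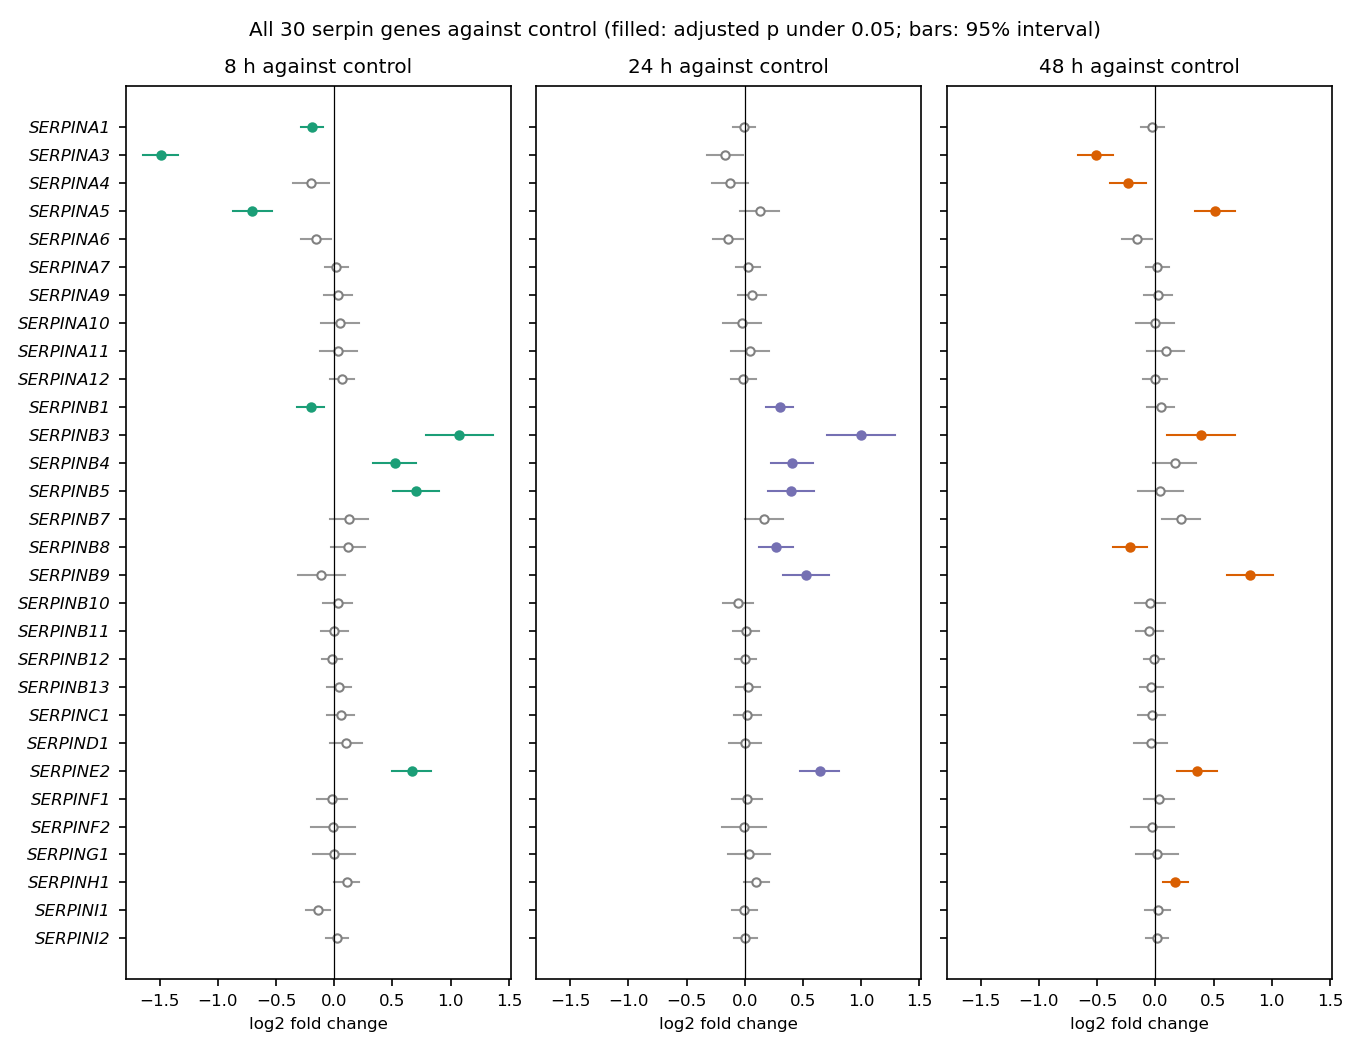
Log2 fold change against control (horizontal axis) for each of the 30 serpin genes (rows, ordered by clade) at 8, 24 and 48 h. Points are limma estimates, bars their 95% intervals, and filled points passed the adjusted threshold of 0.05. SERPINA3 lies farthest left (-1.49 at 8 h) and SERPINB3 farthest right (1.08 at 8 h), while most other rows sit close to 0.

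Across the 4 groups, limma's moderated F test called 10 of 30 serpins at an adjusted p under 0.05, against 38.8% of all genes. In at least 1 of the 5 comparisons made (each time against control, 24 h against 8 h and 48 h against 24 h) 12 were called (40%), against 41.6% of all genes. These 12 were SERPINA1, SERPINA3, SERPINA4, SERPINA5, SERPINB1, SERPINB3, SERPINB4, SERPINB5, SERPINB8, SERPINB9, SERPINE2 and SERPINH1. By clade, 4 of 10 clade A genes and 6 of 11 clade B genes were called, with SERPINE2 and SERPINH1 as the only genes of their clades analysed. None of the genes of clades C, D, F, G and I was called.

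**Figure D2:**
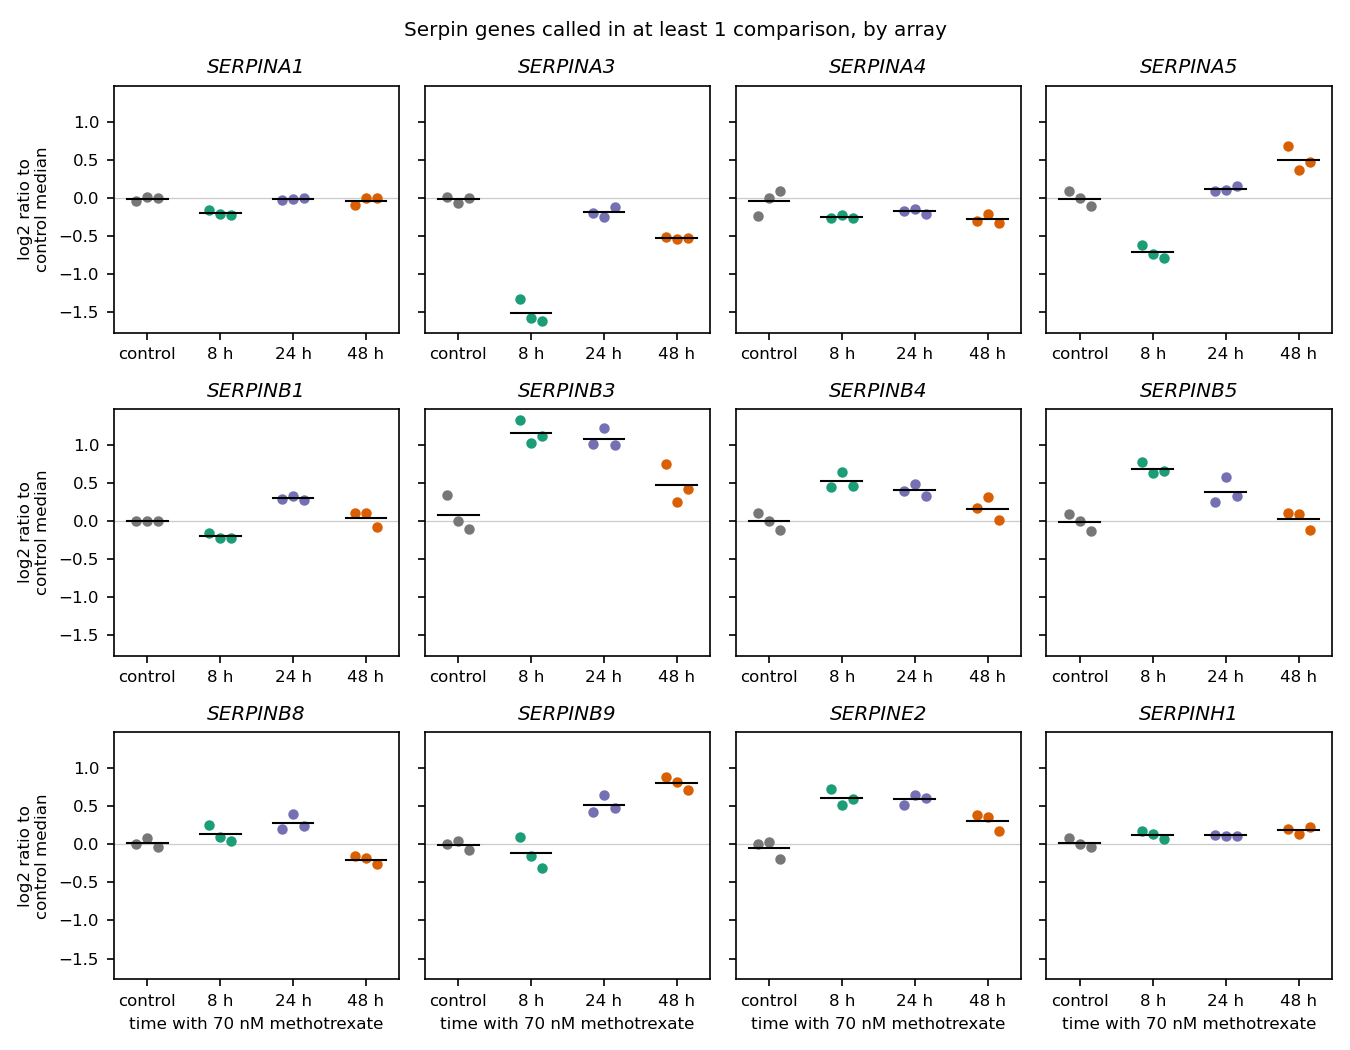
Log2 ratio to the control median (vertical axis) on every array for the 12 serpins called in at least 1 comparison, by group (control, 8, 24 and 48 h with 70 nM methotrexate). Points are single arrays and lines are group means; SERPINA3 and SERPINA5 dip at 8 h, SERPINB3, SERPINB4, SERPINB5 and SERPINE2 are high at 8 and 24 h, and SERPINB9 is high at 24 and 48 h.

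Among the plasma-type inhibitors of clade A, SERPINA3 changed most. It encodes antichymotrypsin, an acute-phase inhibitor of cathepsin G and chymase. Its log2 ratios were 0.01, -0.07 and 0.00 on the control arrays, -1.32, -1.58 and -1.62 at 8 h, -0.20, -0.25 and -0.12 at 24 h, and -0.52, -0.54 and -0.52 at 48 h. All treated arrays lay below all control arrays, with the 8 h arrays far below the rest. SERPINA3 fell at 8 h (log2 fold change -1.49, SE 0.07, adjusted p = 1.63e-08) and at 48 h (-0.51, SE 0.07, adjusted p = 0.000132), while the difference at 24 h was -0.17 (SE 0.07, adjusted p = 0.129) and passed without 8 h replicate 1 (0.0275). From time to time it was 2.5-fold higher at 24 h than at 8 h (1.32, adjusted p = 2.80e-07) and then lower at 48 h than at 24 h (-0.34, adjusted p = 0.00779). The later step did not pass after quantile normalization between arrays (-0.23, adjusted p = 0.339). Quantile normalization gives all arrays a common spread, although array SDs were 0.057 to 0.093 in controls and 0.215 to 0.309 in treated groups. It therefore widens the control arrays, and what a call lost under it alone means, here or below, cannot be decided.

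SERPINA5 encodes the protein C inhibitor, which acts on activated protein C, urokinase and kallikreins. It read 0.08, 0.00 and -0.11 in controls, -0.61, -0.74 and -0.78 at 8 h, 0.10, 0.11 and 0.16 at 24 h, and 0.68, 0.36 and 0.47 at 48 h. The 8 h arrays were the lowest and the 48 h arrays the highest, with no overlap between groups. The gene fell 1.63-fold at 8 h (-0.70, SE 0.08, adjusted p = 2.55e-05) and rose 1.43-fold at 48 h (0.51, SE 0.08, adjusted p = 0.000304), with 0.13 at 24 h (SE 0.08, adjusted p = 0.328). Both steps between times passed, with 0.83 for 24 h against 8 h (adjusted p = 1.06e-05) and 0.38 for 48 h against 24 h (adjusted p = 0.00754), but the later step was lost under quantile normalization (0.26, adjusted p = 0.220).

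The remaining called clade A genes moved little. SERPINA1 encodes antitrypsin, the main plasma inhibitor of neutrophil elastase. It read -0.04, 0.02 and 0.00 in controls, -0.16, -0.21 and -0.23 at 8 h, -0.03, -0.02 and 0.00 at 24 h, and -0.09, -0.01 and 0.00 at 48 h. The 8 h arrays stood below all others, a fall of 0.19 (SE 0.04, adjusted p = 0.00671), and 24 h was higher than 8 h by 0.18 (adjusted p = 0.0106). Both calls were lost under quantile normalization (adjusted p = 0.178 and 0.252). SERPINA4 encodes kallistatin, an inhibitor of tissue kallikrein. Its values were -0.23, 0.00 and 0.10 in controls, -0.26, -0.22 and -0.26 at 8 h, -0.17, -0.14 and -0.22 at 24 h, and -0.31, -0.21 and -0.33 at 48 h, so control replicate 1 lay among the 8 h and 48 h arrays and below those of 24 h. It fell at 48 h (-0.23, SE 0.07, adjusted p = 0.0276), but this call was lost without control replicate 2 (0.1003), control replicate 3 (0.117), 48 h replicate 1 (0.0734) or 48 h replicate 3 (0.0706), with only the arrays of those groups (0.0991), and under quantile normalization (-0.04, adjusted p = 0.972). At 8 h its difference of -0.20 (SE 0.07) had an adjusted p = 0.0581, which passed without control replicate 1 (0.00293) or 48 h replicate 3 (0.0482). The 8 h difference passed too with array weights (0.0175) and with arrays centred on their medians (0.0473). The difference of -0.13 at 24 h (adjusted p = 0.273) also passed without control replicate 1 (0.0215).

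Clade A also holds the hormone carriers. SERPINA6, which binds corticosteroids, read 0.00, 0.13 and -0.02 in controls, -0.11, -0.19 and -0.06 at 8 h, -0.17, -0.05 and -0.10 at 24 h, and -0.21, -0.07 and -0.08 at 48 h. All 9 treated arrays lay below all 3 control arrays, yet no difference passed, with -0.16 at 8 h (SE 0.06, adjusted p = 0.0797), -0.14 at 24 h (adjusted p = 0.142) and -0.15 at 48 h (adjusted p = 0.0807). With array weights all 3 differences passed (0.00816, 0.0121 and 0.0146). SERPINA7, which binds thyroxine, ranged from -0.08 to 0.05 over the 12 arrays. SERPINA9, SERPINA10, SERPINA11 and SERPINA12 were not called in any comparison either.

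In clade B, SERPINB3, known as a squamous cell carcinoma antigen and an inhibitor of lysosomal cathepsins such as L, S and K, had the largest rise of the family. It read 0.34, 0.00 and -0.10 in controls, 1.32, 1.02 and 1.12 at 8 h, 1.01, 1.22 and 0.9996 at 24 h, and 0.75, 0.25 and 0.42 at 48 h. The 8 h and 24 h arrays were all above the controls, and at 48 h replicate 2 fell below the highest control. The gene rose 2.11-fold at 8 h (1.08, SE 0.13, adjusted p = 7.00e-05) and 1.996-fold at 24 h (0.9974, SE 0.13, adjusted p = 0.000202). Under quantile normalization neither passed, with 0.81 at 8 h (adjusted p = 0.0602) and 0.57 at 24 h (adjusted p = 0.225). The rise of 0.39 at 48 h was near the threshold (SE 0.13, adjusted p = 0.0479) and was lost in 14 of 20 alternatives, among them those without control replicate 2 (0.148) or 3 (0.171), 8 h replicate 2 (0.0541) or 3 (0.0651), 24 h replicate 1 (0.0611) or 3 (0.0600), and 48 h replicate 1 (0.178) or 3 (0.0578). Without 48 h replicate 1 the difference was 0.25, and under quantile normalization 0.0054. At 48 h it was lower than at 24 h by 0.60 on the log2 scale (-0.60, adjusted p = 0.0127), a call lost without 48 h replicate 2 (0.0528) and under quantile normalization (0.447).

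SERPINB4, the copy of SERPINB3 shown above, is known as an inhibitor of cathepsin G and chymase. Its values were 0.11, 0.00 and -0.11 in controls, 0.45, 0.65 and 0.46 at 8 h, 0.40, 0.49 and 0.33 at 24 h, and 0.17, 0.31 and 0.01 at 48 h. Again all 8 h and 24 h arrays exceeded all controls and the 48 h arrays overlapped them. It rose at 8 h (0.52, SE 0.08, adjusted p = 0.000568) and 24 h (0.41, SE 0.08, adjusted p = 0.00493), the 24 h call being lost under quantile normalization (0.35, adjusted p = 0.0746). The difference at 48 h was 0.16 (SE 0.08, adjusted p = 0.199). That difference passed without 48 h replicate 3 (0.24, adjusted p = 0.0457) and with array weights (0.28, adjusted p = 0.00126). Whether the probes of SERPINB3 and SERPINB4 cross-react was not tested.

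SERPINB5 encodes maspin, an epithelial member that does not inhibit proteases in the usual serpin manner. It read 0.09, 0.00 and -0.13 in controls, 0.78, 0.63 and 0.65 at 8 h, 0.24, 0.58 and 0.33 at 24 h, and 0.11, 0.09 and -0.12 at 48 h. Of the treated arrays, those at 8 h were highest, those at 24 h intermediate and those at 48 h lowest, and the 48 h arrays overlapped the controls. SERPINB5 rose 1.63-fold at 8 h (0.70, SE 0.09, adjusted p = 9.05e-05) and 1.32-fold at 24 h (0.40, SE 0.09, adjusted p = 0.00823), with 0.04 at 48 h (SE 0.09, 95% interval -0.15 to 0.24). The 24 h call was lost under quantile normalization (0.35, adjusted p = 0.0579). It was lower at 24 h than at 8 h (-0.30, adjusted p = 0.0320), a call lost without 8 h replicate 1 (0.117), 2 (0.0531) or 3 (0.0658) or 24 h replicate 1 (0.144) or 3 (0.113), or under quantile normalization (0.178). It was also lower at 48 h than at 24 h (-0.35, adjusted p = 0.0248), lost without 24 h replicate 2 (0.0846) or 3 (0.0532) or 48 h replicate 3 (0.0635), with only the arrays of those groups (0.0895), and under quantile normalization (0.242).

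SERPINB9, the inhibitor of granzyme B, moved later than these. Its arrays read 0.00, 0.04 and -0.07 in controls, 0.10, -0.15 and -0.31 at 8 h, 0.43, 0.64 and 0.48 at 24 h, and 0.88, 0.81 and 0.71 at 48 h. The 8 h arrays straddled the controls, while all 24 h arrays lay above them and all 48 h arrays above those. The gene rose 1.44-fold at 24 h (0.52, SE 0.09, adjusted p = 0.00142) and 1.76-fold at 48 h (0.81, SE 0.09, adjusted p = 2.67e-05), against -0.11 at 8 h (SE 0.09, adjusted p = 0.486). It was higher at 24 h than at 8 h by 0.63 (adjusted p = 0.000307). The further 0.29 between 24 h and 48 h (SE 0.09) had an adjusted p = 0.0689, which passed without 8 h replicate 1 (0.0226) or 3 (0.0408), 24 h replicate 2 (0.0484) or 48 h replicate 3 (0.0449).

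SERPINB1, its neighbour on chromosome 6 among the genes analysed, inhibits neutrophil elastase, cathepsin G and proteinases of the same granules. It read 0.00, -0.0024 and 0.0031 in controls, -0.16, -0.22 and -0.23 at 8 h, 0.29, 0.33 and 0.28 at 24 h, and 0.11, 0.10 and -0.07 at 48 h. The arrays were all below the controls at 8 h and all above them at 24 h. SERPINB1 fell at 8 h (-0.20, SE 0.05, adjusted p = 0.0133) and rose at 24 h (0.30, SE 0.05, adjusted p = 0.00155), with 0.05 at 48 h (SE 0.05, adjusted p = 0.633). The 48 h difference passed with array weights (0.10, adjusted p = 0.0241). The fall at 8 h was lost without 8 h replicate 2 (0.0514) or 3 (0.0507) and under quantile normalization (0.139). The steps between times were 0.50 for 24 h against 8 h (adjusted p = 2.85e-05) and -0.25 for 48 h against 24 h (adjusted p = 0.00881). The later step was lost with only the arrays of those groups (0.0621) and under quantile normalization (0.125).

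SERPINB8, known to inhibit the proprotein convertase furin, also changed sign. Its values were 0.00, 0.08 and -0.03 in controls, 0.26, 0.10 and 0.05 at 8 h, 0.20, 0.40 and 0.25 at 24 h, and -0.16, -0.18 and -0.26 at 48 h. The 24 h arrays all lay above the controls and the 48 h arrays all below. It rose at 24 h (0.27, SE 0.07, adjusted p = 0.0148) and fell at 48 h (-0.22, SE 0.07, adjusted p = 0.0311). The rise was lost without control replicate 1 (0.0521) or 3 (0.0538) or 24 h replicate 2 (0.0566), and the fall without control replicate 1 (0.0674) or 2 (0.125) or 48 h replicate 2 (0.0581) or 3 (0.0891). Both were lost under quantile normalization (0.259 and 0.143). The step from 24 h to 48 h was larger than either (-0.48, SE 0.07, adjusted p = 0.000629) and passed in all 20 alternatives.

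The other clade B genes were not called. SERPINB7, known as megsin, came closest, with 0.05, 0.00 and -0.04 in controls, 0.17, 0.14 and 0.08 at 8 h, 0.22, 0.15 and 0.13 at 24 h, and 0.43, 0.15 and 0.08 at 48 h. All 9 treated arrays lay above the controls, and 48 h replicate 1 was the highest. Its difference at 48 h was 0.22 (SE 0.08, adjusted p = 0.0509), and it passed without 48 h replicate 3 (0.29, adjusted p = 0.0101) and with the replicate number as a block (0.22, adjusted p = 0.0174). At 24 h it was 0.16 (adjusted p = 0.181), which passed without 48 h replicate 1 (0.0407). Both differences passed with array weights (0.0172 at 48 h and 0.0462 at 24 h). SERPINB10, SERPINB11, SERPINB12 and SERPINB13, which lie among the called genes on chromosome 18, had differences from control close to 0 at all 3 times.

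SERPINE2, or protease nexin, is a secreted and matrix-bound inhibitor of thrombin and of the plasminogen activators. It read 0.00, 0.03 and -0.19 in controls, 0.73, 0.52 and 0.59 at 8 h, 0.51, 0.65 and 0.61 at 24 h, and 0.39, 0.36 and 0.17 at 48 h. Every treated array lay above every control array, and control replicate 3 was the lowest of all. SERPINE2 was the member that rose at all 3 times without an overlap, 1.58-fold at 8 h (0.66, SE 0.08, adjusted p = 4.22e-05), 1.56-fold at 24 h (0.64, SE 0.08, adjusted p = 8.86e-05) and 1.28-fold at 48 h (0.36, SE 0.08, adjusted p = 0.00413). The 48 h call was lost under quantile normalization (0.30, adjusted p = 0.118). The difference between 24 h and 8 h was -0.02 (95% interval -0.19 to 0.15). The fall at 48 h against 24 h (-0.29, SE 0.08, adjusted p = 0.0348) was lost without 8 h replicate 3 (0.0509), any 24 h array (0.0523 to 0.109), or 48 h replicate 2 (0.0577) or 3 (0.0889), with only the arrays of those groups (0.0668), with arrays centred on their medians (0.0547), and under quantile normalization (0.228).

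SERPINH1, the collagen chaperone of the endoplasmic reticulum, read 0.08, 0.00 and -0.03 in controls, 0.17, 0.13 and 0.07 at 8 h, 0.13, 0.11 and 0.11 at 24 h, and 0.20, 0.14 and 0.23 at 48 h. The 24 h and 48 h arrays lay above the controls by a small margin and the 8 h arrays overlapped them. It rose at 48 h by 0.17 (SE 0.05, adjusted p = 0.0182), a call lost without control replicate 2 (0.0658) or 3 (0.0698) or 48 h replicate 1 (0.0515) or 3 (0.0521), with only the arrays of those groups (0.0653), and under quantile normalization (0.09, adjusted p = 0.594). The differences at 8 h (0.11, adjusted p = 0.145) and 24 h (0.10, adjusted p = 0.206) did not pass.

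Among the thrombin inhibitors SERPINC1 (antithrombin) and SERPIND1 (heparin cofactor), the clade F genes SERPINF1 (pigment epithelium-derived factor) and SERPINF2 (antiplasmin), and the clade I genes SERPINI1 (neuroserpin) and SERPINI2, no difference was called. SERPINI1 came closest at 8 h, with -0.06, -0.15 and -0.09 at 8 h, against 0.13, 0.00 and -0.02 in controls, groups that did not overlap (-0.14, SE 0.05, adjusted p = 0.0586). That difference passed without control replicate 3 (0.0476), with array weights (0.0135) and with arrays centred on their medians (0.0354). SERPING1 encodes the inhibitor of the first complement component and is known as an interferon-responsive gene. It read -0.13, 0.04 and 0.00 in controls, -0.16, 0.0028 and 0.06 at 8 h, 0.11, 0.0026 and -0.10 at 24 h, and -0.11, -0.08 and 0.15 at 48 h. The groups overlapped fully, and the 95% intervals of its log2 fold change were -0.18 to 0.18 at 8 h, -0.14 to 0.22 at 24 h and -0.16 to 0.20 at 48 h. Over the 18 members called in no comparison, log2 fold changes against control ran from -0.16 to 0.22, with 95% intervals reaching from -0.29 to 0.38. Without levels, a transcript that did not change cannot be told apart from a probe set that measured only background.

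Between times, 5 serpins rose and 1 fell at 24 h against 8 h, 20% of the 30 against 19.4% of all genes (9.99% rose and 9.4% fell). At 48 h against 24 h 1 rose and 6 fell, 23.3% against 10.1% of all genes (5.26% rose and 4.86% fell). Groups did not overlap for 9 members at 24 h against 8 h (33.3% of all genes) and for 11 at 48 h against 24 h (24% of all genes). Called changes of at least 1.5-fold numbered 3 (2.37% of all genes) and 1 (0.74%). Those that rose at 24 h against 8 h were SERPINA1, SERPINA3, SERPINA5, SERPINB1 and SERPINB9, and SERPINB5 fell. Those that fell at 48 h against 24 h were SERPINA3, SERPINB1, SERPINB3, SERPINB5, SERPINB8 and SERPINE2, and SERPINA5 rose. Both sets of differences share the 24 h arrays.

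Most serpin genes lie in clusters, in RefSeq's order of genes. On chromosome 14 the order was SERPINA10, SERPINA6, SERPINA1, SERPINA11, SERPINA9, SERPINA12, SERPINA4, SERPINA5 and SERPINA3, and 4 of these 9 were called. SERPINA5 and SERPINA3, neighbours at the end of this order, both fell at 8 h, while at 48 h SERPINA5 rose and SERPINA3 fell. On chromosome 18 the order was SERPINB5, SERPINB12, SERPINB13, SERPINB4, SERPINB3, SERPINB11, SERPINB7, SERPINB10 and SERPINB8, and 4 of 9 were called. Over all genes, 41.6% were called in at least 1 comparison. SERPINB12 and SERPINB13, which lie between SERPINB5 and SERPINB4, were not.

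**Figure D3:**
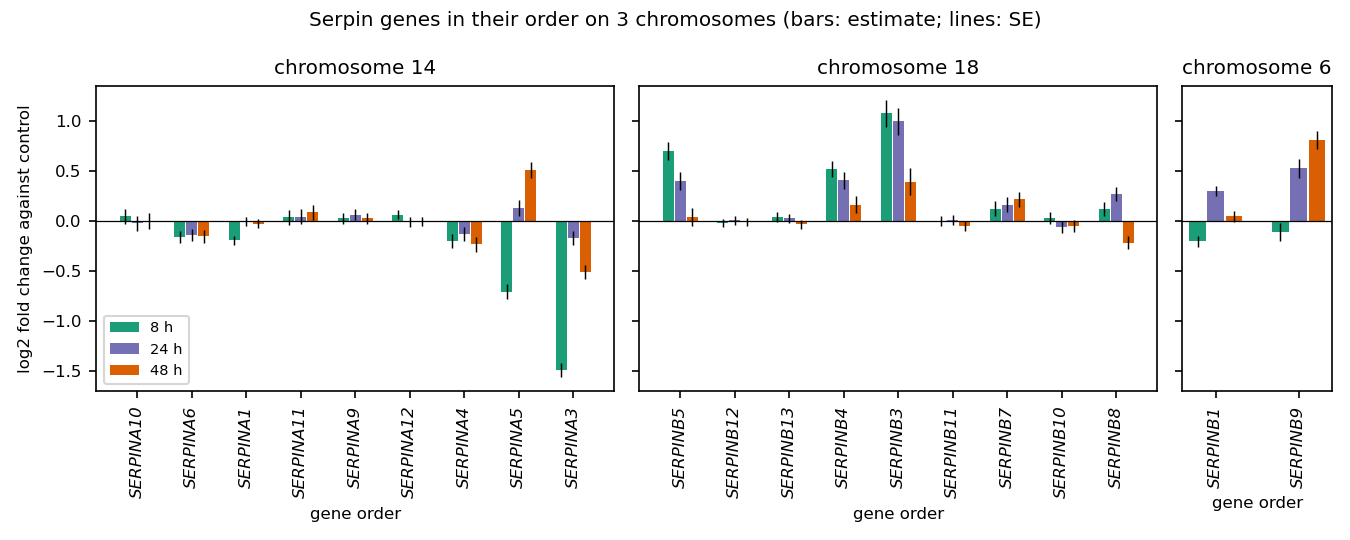
Log2 fold change against control (vertical axis) of serpin genes on chromosomes 14, 18 and 6 in their order along each chromosome (horizontal axis, not to scale). Bars are limma estimates at 8, 24 and 48 h and lines their SE. SERPINB3, at 1.08 at 8 h, stands beside SERPINB11, at 0.0023.

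Promoter letters were searched in the 250 bases before each start. The set of RefSeq promoter sequences used held 24 of the 30 genes, among them all 12 called ones. A match is a description of the letters, found on either strand, and the motifs were chosen with the values known. The STAT motif TTCNNNGAA occurred in 3 of the 12 called genes and in 8 of the 24, against 8.1% of all genes with a promoter in the table. In SERPINA5 it read TTCCAGGAA, in SERPINB1 TTCGGGGAA and in SERPINB8 TTCAGAGAA. The AP-1 motif TGANTCA occurred in SERPINB5 and SERPINB8 among called genes and in 6 of 24 (8.1% of all genes), and TATAAA in 2 called genes and 6 of 24 (13% of all genes). Genes with several starts had more windows to match. The C/EBP motif TTGCNNAA was found in 1 called gene and 5 of 24 (11% of all genes), the NF-kB motif in 0 and 1 (2.1%), and the E2F motif TTTCCCGC in 0 and 0 (1.7%). Overlapping matches were each kept.

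The proteases that serpins act on, and the other inhibitors beside them, were counted from lists chosen by role. The counts are to be read against all genes, of which 12.1% rose and 12% fell at 8 h, 8.69% rose and 8.02% fell at 24 h, and 13% rose and 12.3% fell at 48 h, with median log2 fold changes of 0.02, 0.02 and 0.01. Of 13 genes of plasminogen activation 4 rose and 1 fell at 8 h, 2 rose and 0 fell at 24 h, and 3 rose and 0 fell at 48 h (medians 0.04, 0.01 and 0.02). PLAU, the urokinase that SERPINE2 and SERPINA5 inhibit, rose by 0.42 (SE 0.08) at 8 h, 0.96 (SE 0.08) at 24 h and 1.52 (SE 0.08) at 48 h, and its receptor PLAUR by 0.17, 0.34 and 0.61 (SE 0.05 each). Of 24 trypsin-like serine proteases 0 rose and 6 fell at 8 h, 2 rose and 0 fell at 24 h, and 2 rose and 2 fell at 48 h (medians -0.0052, 0.04 and 0.09). PRSS1, a trypsinogen with near-identical copies whose value is uncertain, differed by -1.48 at 8 h, -0.11 at 24 h (adjusted p = 0.345) and -0.63 at 48 h (SE 0.07 each). PRSS8, a membrane-anchored protease of epithelia, fell by 0.69 (SE 0.10) at 8 h.

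Of 17 proteases that clade B serpins are known to meet, lysosomal cathepsins, granule proteases and caspases, 0 rose and 5 fell at 8 h, 2 rose and 0 fell at 24 h, and 3 rose and 0 fell at 48 h (medians -0.05, 0.06 and 0.08). CTSV, a cathepsin close to cathepsin L, rose by 0.44 (SE 0.11) at 24 h and 0.71 (SE 0.11) at 48 h, and CTSK rose by 0.60 (SE 0.10) at 48 h. Among 25 protease inhibitors of other families 2 rose and 8 fell at 8 h, 5 rose and 0 fell at 24 h, and 6 rose and 2 fell at 48 h (medians -0.02, 0.04 and 0.05). WFDC2, of the whey acidic protein family, fell by 0.34 (SE 0.05) at 8 h and rose by 0.33 at 24 h and 1.28 at 48 h. PI3, the elastase inhibitor elafin, rose by 0.45 (SE 0.09) at 8 h, 0.78 at 24 h and 1.12 at 48 h.

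Of 19 genes of collagen maturation, the pathway of SERPINH1, 3 rose and 3 fell at 8 h, 4 rose and 1 fell at 24 h, and 4 rose and 1 fell at 48 h (medians -0.02, 0.06 and 0.02). P4HA2, a prolyl hydroxylase, rose by 0.70 (SE 0.06) at 24 h and 0.92 (SE 0.06) at 48 h, and the isomerase FKBP14 fell by 0.48 (SE 0.10) at 8 h. Of 18 genes that transforming growth factor beta is known to regulate, 2 rose and 7 fell at 8 h, 3 rose and 3 fell at 24 h, and 6 rose and 6 fell at 48 h (medians -0.10, -0.08 and 0.08). ID2 fell by 0.70, 0.77 and 0.80 at the 3 times (SE 0.07 each), and ID1 fell by 0.28 at 8 h and 0.66 at 48 h (SE 0.05 each). All these comparisons use 1 set of 3 control arrays.

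**Figure D4:**
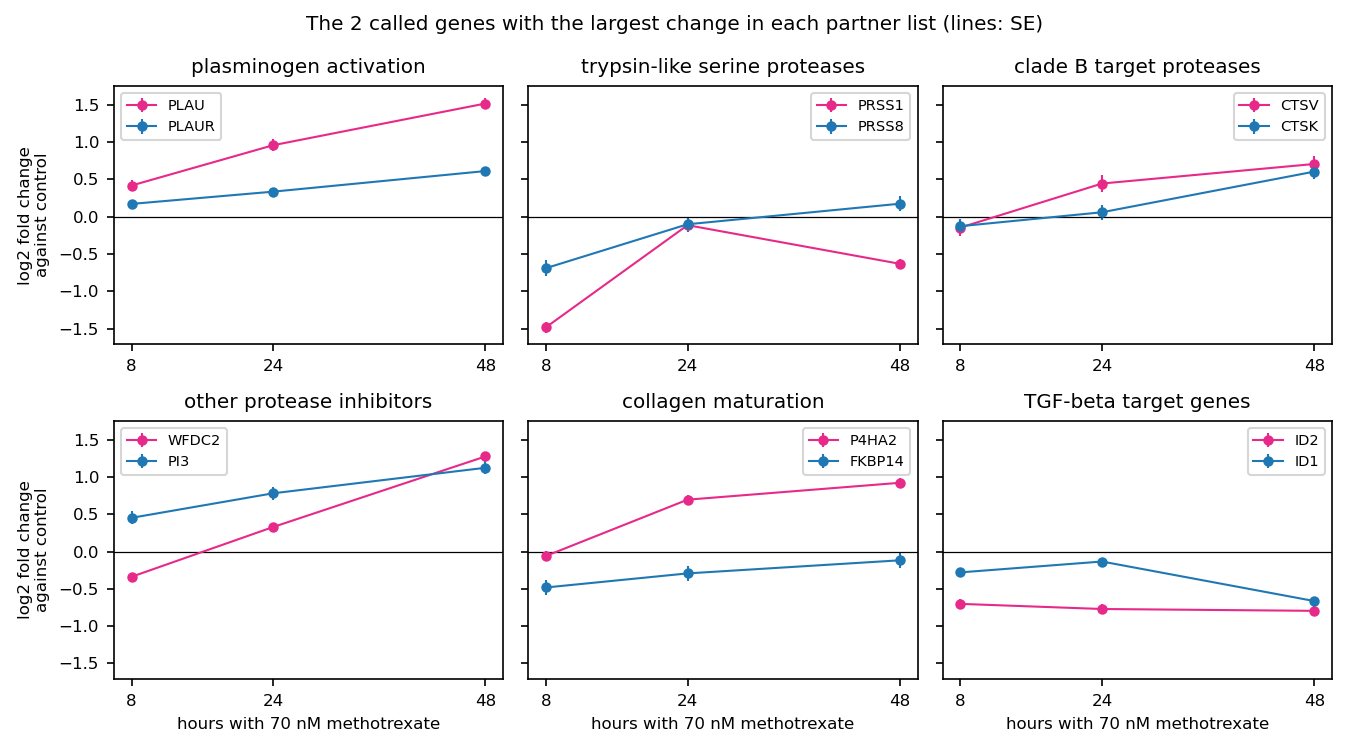
Log2 fold change against control (vertical axis) at 8, 24 and 48 h with 70 nM methotrexate (horizontal axis) for the 2 called genes with the largest change in each of 6 lists of genes linked to serpins. Points are limma estimates and lines through them their SE. PLAU reaches 1.52 and WFDC2 1.28 at 48 h, and PRSS1 is lowest at 8 h (-1.48).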

How the data were processed

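Per the labels, total RNA of HT29 cells was hybridised to human gene arrays, 12 arrays in 4 groups of 3. The deposited file gives 1 log2 value for each probe set on each array. RMA and build hg19 are named in the submitters' processing notes, without versions. Every one of the 28869 probe sets has a control median of exactly 0, which makes the deposited numbers log2 ratios to that median. How they were centred was not stated in the labels, and the log base was taken from RMA.

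A single symbol was given for 19310 probe sets, several for 1752 and none for 7807. A gene's single-gene probe sets were averaged, giving 18377 genes. All 30 serpin symbols matched RefSeq, and pseudogenes were taken from its biotypes. One linear model with a mean per group was fitted to all arrays with limma 3.58.1 in R 4.3.3 (8 residual and 4.71 prior degrees of freedom), two-sided, with Benjamini-Hochberg adjustment over all genes. The procedure was tested on simulated arrays with independent noise and a small set of genes changed in the 24 h group alone. These data have many more changed genes and an array that stood apart, so that test does not show how reliable the calls are here. Intervals are 95% from the moderated SE. The number of arrays limits the precision.

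Same-numbered replicates did not deviate together throughout (18 pairs, r from -0.452 to 0.472, 11 over 0.1), so the fit has no replicate block. Between control and 48 h alone all 3 pairs were over 0.1 (0.349, 0.117 and 0.458), and the blocked value is given where it changed a call there. All serpins were accounted for, and those called in any comparison are given array by array. From each list of linked genes at most the 2 called genes with the largest change are named. Genes just short of the threshold and SERPING1 were singled out after their values were seen. The members, lists and tests were chosen with earlier results of these data known. Alternatives tried were the replicate block, array weights, array centring, quantile normalization, fits restricted to the groups compared, robust eBayes, probe sets on their own, adjustment over all probe sets, an adjusted p under 0.01, at least a 1.5-fold change, and leaving out each array. Other background corrections and a filter on dim probes could not be run on centred ratios. Figures were drawn with Python 3.11.15 and matplotlib 3.10.9, and sequences compared with Biopython 1.88.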

Additional observations from a re-analysis of the deposited data

Results flagged for a closer look

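For 9 serpins the difference from control changed between consecutive times by limma's test, at an adjusted p under 0.05. SERPINA3 moved by 1.32 on the log2 scale at 24 h against 8 h and by -0.34 at 48 h against 24 h. SERPINA5 moved by 0.83 and 0.38, SERPINB1 by 0.50 and -0.25, and SERPINB5 by -0.30 and -0.35 in the same comparisons. SERPINA1 differed by 0.18 and SERPINB9 by 0.63 at 24 h against 8 h alone. SERPINB3 differed by -0.60, SERPINB8 by -0.48 and SERPINE2 by -0.29 at 48 h against 24 h alone.

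A signal outside the genes described came from SERPINB9P1, a pseudogene related to SERPINB9 and left out by the rule. It was higher than control by 0.63 at 48 h (SE 0.05, adjusted p = 1.74e-06) and lower by 0.27 at 8 h (log2 fold change -0.27, adjusted p = 0.00214). SERPINB9 itself was higher by 0.81 at 48 h. Whether the probe sets share transcripts was not tested.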

How the results depend on the processing

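None of the 36 calls of a serpin in a comparison reversed in the 20 alternatives that refit the data, and 16 of the 36 passed in all 20. Many of these alternatives could not reverse a call, because they leave the log2 fold change of a serpin as it was. They are the block, the robust prior, the restricted fits, both probe set settings and leaving out an array of a group not compared. Only the adjusted p could move in them. Quantile normalization lowered the calls to 5 at 8 h, 3 at 24 h and 3 at 48 h against control and to 1 at 48 h against 24 h. It forces a common spread on arrays whose values had SDs of 0.249 to 0.259 at 8 h, 0.215 to 0.239 at 24 h and 0.25 to 0.309 at 48 h, against 0.057 to 0.093 in controls, which the centring had narrowed. With at least a 1.5-fold change the calls were 5, 2 and 1 at 8, 24 and 48 h against control, 3 at 24 h against 8 h and 1 at 48 h against 24 h. With an adjusted p under 0.01, 4 were left at 48 h against control and 4 at 48 h against 24 h. With only the arrays of the groups compared these were 5 and 4. The other counts stayed at 8 at 8 h and 7 at 24 h against control and 6 at 24 h against 8 h. The reason was not tested. Array weights raised the serpins that differed among the 4 groups to 17, and the cause was not tested. The share of all genes in that test with weights was not computed. Weights also raised the share of all genes called to 35.8%, 33.1% and 40.6% at 8, 24 and 48 h against control. It was 28.6% at 24 h against 8 h and 32.1% at 48 h against 24 h. The weight was 6.52 for 48 h replicate 2 and 0.199 for replicate 3. Serpin calls that array weights added are not all listed above. Leaving out 1 array gave 7 to 9 calls at 8 h, 6 to 8 at 24 h and 4 to 8 at 48 h against control, 5 to 6 at 24 h against 8 h, 5 to 8 at 48 h against 24 h and 9 to 13 among the 4 groups. At 48 h the lowest, 4, came without control replicate 2, and 5 without control replicate 3 or 48 h replicate 1. With the replicate block the calls were 9, 7 and 9 against control, 6 at 24 h against 8 h, 9 at 48 h against 24 h and 10 among the 4 groups. Of all genes, the block called 25.7%, 18.4% and 27.2% against control, 20.8% at 24 h against 8 h and 11.5% at 48 h against 24 h. The share of all genes was not computed for quantile normalization, the restricted fits, an adjusted p under 0.01 or most of the arrays left out. The block ended no serpin call and added SERPINA4 at 8 h (0.0467) and SERPINB7 at 48 h (0.0174) against control, and SERPINB4 (0.0257) and SERPINB9 (0.0352) at 48 h against 24 h. Of the arrays, 6 of 12 correlated best with an array of their own number. The loss of absolute level in the deposited ratios limits what the small differences of single serpins show.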
